A study of Arachis hypogaea with 3 samples.

Results

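The genes described here are those of the peanut (Arachis hypogaea) light-harvesting antenna, the photosystem reaction centres, chlorophyll synthesis, plastocyanin and Rubisco. They are the 89 of 83579 reference sequences whose best protein match carried a photosynthesis word in its description (photosystem, light-harvesting, chlorophyll, plastocyanin, protochlorophyllide, ribulose, phosphoribulokinase or magnesium chelatase), and that rule uses no measured level. No phosphoribulokinase was among them. The 89 rows comprised 23 antenna rows, 30 reaction centre rows, 8 pigment synthesis rows, 15 Rubisco rows, 3 plastocyanin rows, 4 epimerases, 2 assembly factors, 2 chlorophyllases and 2 rows that share only a word with the rest. Rows are sequences and not loci, and several rows can come from near-identical gene copies.

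The gynophore is the peg that carries the fertilized peanut ovary into the ground. Poly(A) RNA was sequenced from gynophores at 3 stages. The authors describe plants of the cultivar Luhua 14, grown on a farm, and give the outermost 1 cm as the part taken for protein. S1 gynophores were still in the air, green or purple and 3 to 5 cm in length, S2 gynophores, white and unswollen, were taken about 3 days after they entered the soil, and at S3 pods of 2 to 3 mm had formed in the dark. There was 1 library per stage, with 6.91, 6.67 and 7.15 times 1000000 uniquely aligned reads in stage order, so no difference below has a replicate check. Intervals are exact 95% intervals for counting error and compare libraries. Since each sample is a mixture of tissues, fewer green cells cannot be told apart from less RNA per cell.

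In the thylakoid membrane, antenna proteins bind chlorophyll a and b and pass excitation to the reaction centres of photosystems II and I, between which electrons travel through the cytochrome b6f complex and plastocyanin. Magnesium chelatase inserts magnesium into protoporphyrin, the first step committed to chlorophyll, and protochlorophyllide reductase, which needs light in flowering plants, makes chlorophyllide. Rubisco fixes carbon dioxide with small subunits encoded in the nucleus and large subunits encoded in the plastid, as are the chlorophyll-binding cores of both photosystems.

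The 3 libraries differed most between the aerial and the buried stages. Leaving aside the 2 rows that share only a word, the S1 total was 4671 reads per 1000000 reads of the library (RPM), the S2 total 325 RPM and the S3 total 581 RPM. The sum was thus 14.4-fold lower in S2 than in S1 (13.7 to 15.0) and 8.04-fold lower in S3 than in S1 (7.79 to 8.31), while S3 stood 1.78-fold above S2 (1.69 to 1.88). Antenna rows made up 64.1, 33.6 and 45.7% of these totals in stage order. Large, abundant rows set these sums, and the median row was lower by far less, at -1.13 on the log2 scale of RPKM + 1 for S2 over S1. RPKM is RPM divided by the length of the sequence in kilobases.

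Of the 89 rows, 83 had a read in some library and 38 reached an RPKM of 10 in some stage. In RPKM + 1, 44 of the 83 were lower in S2 by 2 times or more, against 9.19% of all rows with a read, and 2 were at least 2 times higher, against 9.03%. S3 set against S2 gave 1 row lower (11.4% of all rows) and 11 higher (18.6%), so the count of higher rows was below the share of all rows. S3 set against S1 gave 42 rows lower (13.9% of all rows) and 2 higher (21.0%). The highest RPKM was in S1 for 66 of the 83 (30.2% of all rows), in S2 for 11 (25.0%) and in S3 for 6 (44.8%). Among rows that reached an RPKM of 10, 34 of 38 were lower in S2 than in S1 (9.16% of all such rows), 11 were higher in S3 than in S2 (22.0%) and 32 were lower in S3 than in S1 (17.4%). Steeper differences were counted as well: 205 of 42547 such rows were lower in S2 by 10 times or more, and 22 of those 205 (10.7%) were photosynthesis rows, 57.9% of the 38. Most of the 38 passed the limit through S1, where 33 had their highest RPKM, against 13135 of the 42547. The limit thus favours falls from S1 among the 38, and these shares are descriptive only.

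**Figure D1:**
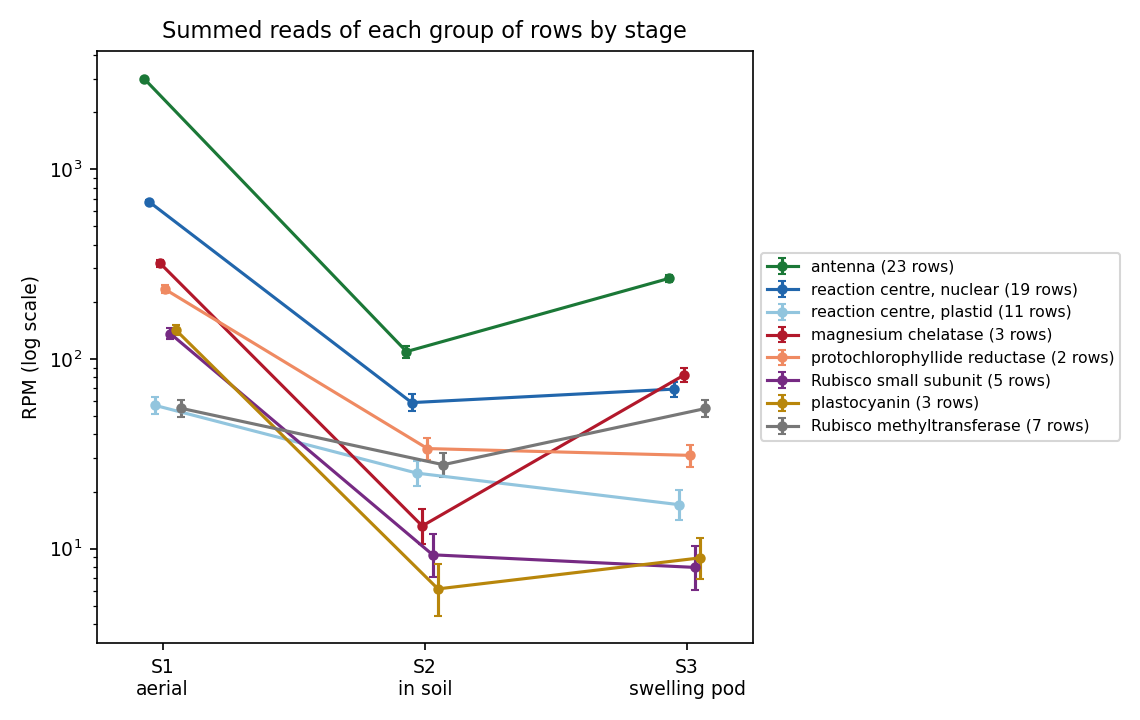
Summed RPM of 8 groups of rows (log axis) in the S1, S2 and S3 libraries; bars are exact 95% Poisson intervals, and lines join the values of one group. Antenna rows lay at 2995, 109 and 266 RPM, and the magnesium chelatase line turns up, with 82.5 in S3 against 13.2 in S2, whereas the protochlorophyllide reductase line stays near its S2 level, with 31.1 in S3 against 33.7 in S2.

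Antenna transcripts showed the deepest reduction of the large groups. The 23 rows summed to 2995, 109 and 266 RPM in stage order, 27.4-fold lower in S2 than in S1 (25.4 to 29.5). All 21 antenna rows with a read had their highest RPKM in S1. Of these, 12 were lower in S2 by 2 times or more and none was higher. The other 9 differed by less than 2 times in RPKM + 1.

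A pair of rows matching a soybean photosystem II type I chlorophyll a/b-binding protein, the main trimeric antenna protein of photosystem II, dominated the sum. EZ723829.1 had 8203, 182 and 571 reads and RPKM of 1054, 24.2 and 70.9 over the stages. EZ721288.1 had 7673, 248 and 648 reads and RPKM of 1047, 35.1 and 85.5. In S1 they ranked 37 and 38 among all rows by RPKM, in S2 12294 and 7760, and in S3 2818 and 2042. Their S1 levels were alike, but the reduction in S2 was 43.5-fold for EZ723829.1 (37.6 to 50.7) and 29.9-fold for EZ721288.1 (26.3 to 34.0), and these counting intervals do not overlap.

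Rows matching chlorophyll a/b-binding proteins of castor bean came next. EZ721219.1 had RPKM of 181, 11.3 and 26.3, EZ736029.1 had 176, 8.63 and 19.2, and EZ725459.1 had 130, 4.28 and 11.4. Reads of EZ725459.1 covered only 25.4%, 23.6% and 24.4% of its bases in S1, S2 and S3, and reads shared with a near-identical copy are not counted. CP24, a minor antenna protein that links the trimers to the photosystem II core, was reduced less: EZ739906.1 had RPKM of 76.6, 8.02 and 15.6, and EZ739905.1 had 62.6, 4.03 and 7.18. The 3 CP24 rows together were 10.7-fold lower in S2 than in S1 (8.58 to 13.4), against 35.7-fold for the 9 rows named photosystem II type I (32.4 to 39.4).

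The remaining antenna rows were weak. EZ721956.1 had 65, 1 and 5 reads, a 62.8-fold difference between S1 and S2 whose interval runs upward from 10.9 to 2517, and JK169574.1 had 58, 2 and 3 reads. EZ722928.1 was the mildest of the better covered rows, with 47, 13 and 32 reads. GW961444.1 had 10 reads in S1 and 0 in both buried stages. With 3 reads set in place of 0 it was 3.22-fold lower in S2, a value that leaves out the counting error of the S1 reads. Rows named for Lhca5 (EZ737404.1, 12, 2 and 0 reads) and Lhcb8 (JK192165.1, 15, 7 and 7 reads) were detected at few reads, and 2 antenna rows had no read at all.

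**Figure D2:**
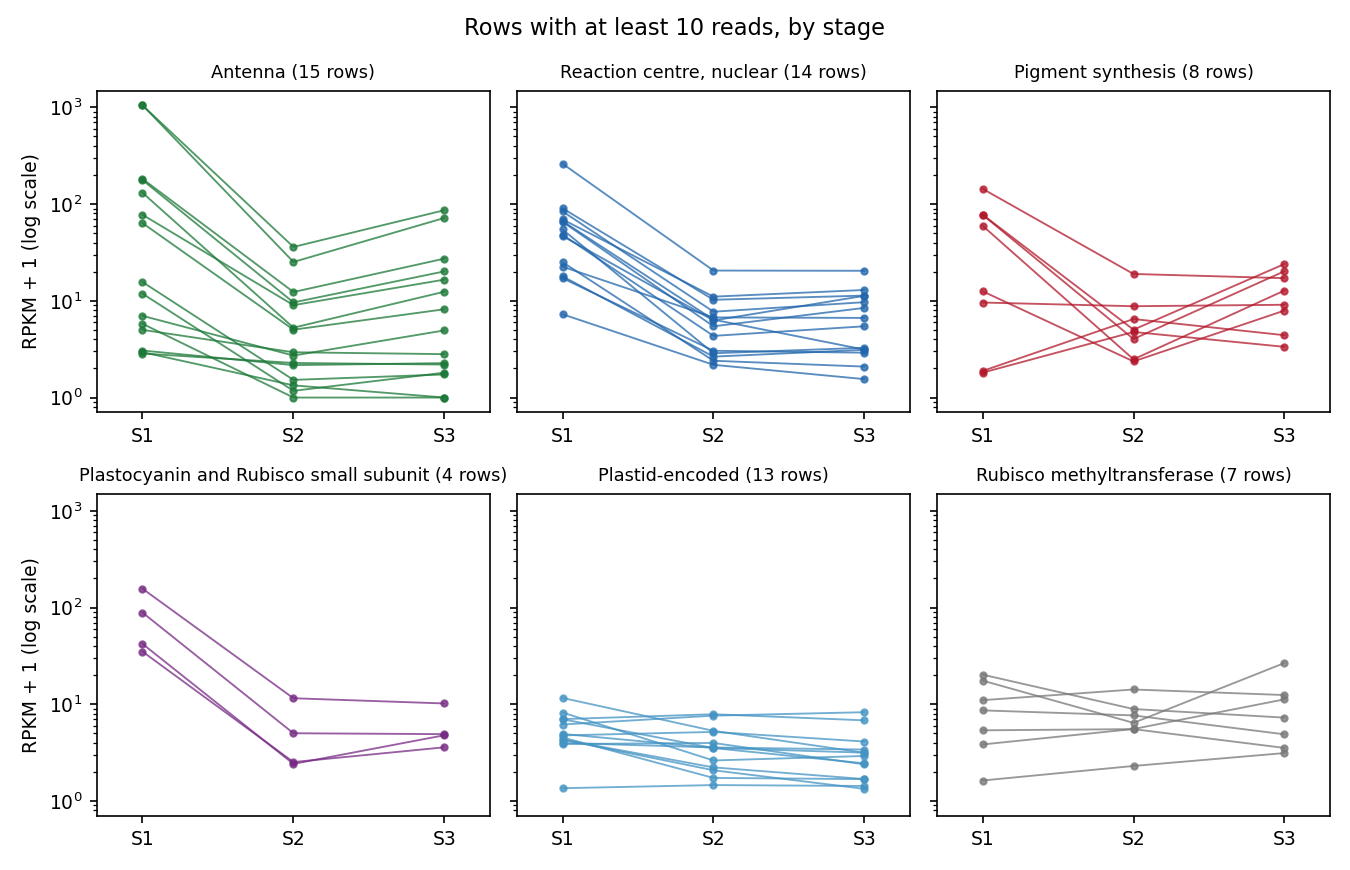
RPKM + 1 (log axis) by stage of each row with at least 10 reads over the 3 libraries, in 6 panels by role; each line is 1 row and there are no error bars. Antenna and nuclear reaction centre rows drop together between S1 and S2, the plastid-encoded rows lie low throughout, some level and some lower in S2 and S3, and in pigment synthesis 2 weak rows cross the others upward.

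Reaction centre proteins encoded in the nucleus were also lower underground. The 19 rows summed to 671, 58.9 and 69.4 RPM in stage order, 11.4-fold lower in S2 than in S1 (10.3 to 12.7). All 18 rows with a read were highest in S1, and 15 of them were at least 2 times lower in S2. The 14 photosystem I rows together were 12.4-fold lower in S2 than in S1 (11.1 to 14.0). The 5 rows for the photosystem II 10 kDa protein, PsbR, which helps to bind the oxygen-evolving complex, were 7.61-fold lower (6.07 to 9.66).

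The strongest photosystem I row was PsaH, where antenna complexes dock during state transitions. EZ755291.1 had 1269, 92 and 98 reads and RPKM of 260.5, 19.6 and 19.4 over the stages. PsaL, its neighbour in the complex, had RPKM of 83.2, 6.72 and 8.68 in EZ722652.1. Rows for subunit V (PsaG), which stabilizes the complex, held the steepest difference, with RPKM of 53.7, 1.87 and 2.27 in EZ721285.1, a 28.7-fold lower level in S2 than in S1 (15.4 to 60.4). The 1 row for subunit IV (PsaE), on the stromal side, had RPKM of 16.9, 1.65 and 2.12 in EZ751774.1.

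PsaD, which binds ferredoxin, was spread over 7 rows that summed to 184, 18.6 and 17.8 RPM. These copies did not all behave alike in S3. EZ721186.1 had RPKM of 89.5, 9.25 and 10.3 over the stages, and EZ726620.1 had 47.2, 3.34 and 4.45. EZ722761.1 continued downward, with RPKM of 65.6, 5.39 and 2.13, and its 11 reads in S3 against 26 in S2 gave a ratio of 0.395 (0.176 to 0.827). It was the only photosynthesis row at least 2 times lower in S3 than in S2 in RPKM + 1.

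For PsbR, EZ721278.1 had 360, 51 and 65 reads and EZ722619.1 had 306, 34 and 71. The S3 to S2 ratio was 1.19 (0.812 to 1.75) in the first row and 1.95 (1.28 to 3.03) in the second. The other 3 PsbR rows together had 4 reads in S1 and none in S2 or S3.

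Rows naming proteins encoded in the plastid genome differed less between the stages. Capture on oligo(dT) disfavours plastid mRNAs, which mostly lack long poly(A) tails, so their levels here are not comparable with those of nuclear genes. The 11 reaction centre rows of this kind summed to 57.0, 25.0 and 17.1 RPM in stage order, 2.28-fold lower in S2 than in S1 (1.90 to 2.75) and 0.682 times as high in S3 as in S2 (0.535 to 0.866). The best covered, Unigene72498, names the 44 kDa antenna of the photosystem II core (CP43) and had RPKM of 10.6, 4.32 and 2.16, lower at each step. CP47, the other core antenna, had RPKM of 7.23, 1.63 and 1.92 in Unigene17046.

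Small plastid-encoded subunits were nearly level. Photosystem II protein I (Unigene65715) had 14, 15 and 12 reads over the stages, protein K (EZ737148.1) had 18, 15 and 15, and protein M (Unigene53422) had 6, 6 and 3. Photosystem I subunit VIII (Unigene63310) had 19, 21 and 19 reads, whereas subunit B (EZ745732.1), which carries P700, had 19, 6 and 2. Both rows named P700 apoprotein A2 had no read. The assembly factors Ycf3 (EZ747608.1, 55, 68 and 80 reads) and Ycf4 (EZ744242.1, 37, 23 and 21 reads) summed to 13.3, 13.6 and 14.1 RPM. Over all 15 plastid-encoded rows the difference between S1 and S2 was 1.85-fold (1.60 to 2.14).

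Plastocyanin, the copper protein that carries electrons to photosystem I, was reduced about as steeply as the antenna. Its 3 rows summed to 142, 6.14 and 8.95 RPM in stage order, 23.2-fold lower in S2 than in S1 (17.0 to 32.5). EZ726866.1 had 520, 23 and 24 reads, EZ724915.1 had 254, 11 and 20, and EZ721013.1 had 210, 7 and 20. All 3 rows were lower in both buried stages. Their summed S3 to S2 ratio of 1.46 (0.969 to 2.21) has an interval that includes 1.

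Rubisco small subunit reads came almost entirely from 1 sequence. EZ723461.1, which held 99.3% of the reads of its 5 rows, had 933, 61 and 57 reads and RPKM of 156, 10.6 and 9.21 over the stages. It was 14.8-fold lower in S2 than in S1 (11.4 to 19.5), and the S3 to S2 ratio of 0.872 (0.597 to 1.27) has an interval on both sides of 1. The other 4 rows had 1 or 2 reads each. The plastid-encoded large subunit had 64, 26 and 16 reads in EZ734189.1 and 4, 5 and 5 in EZ728230.1, a summed level 2.12-fold lower in S2 than in S1 (1.37 to 3.35). Rubisco activase, which frees the active site of inhibitory sugars, had 17, 0 and 3 reads in EZ721341.1. The interval of its S1 to S2 ratio runs upward from 3.98.

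Chlorophyll synthesis split by enzyme. The 8 pigment synthesis rows summed to 565, 53.2 and 124 RPM in stage order, 10.6-fold lower in S2 than in S1 (9.52 to 11.9). The 3 rows matching a soybean magnesium chelatase subunit had the steepest difference at both steps: 320 RPM in S1, 13.2 RPM in S2 and 82.5 RPM in S3. They were 24.3-fold lower in S2 than in S1 (19.6 to 30.4), and S3 was 6.26-fold above S2 (5.00 to 7.92) yet still 3.88-fold below S1 (3.54 to 4.25). All 3 moved alike. Unigene72277 had 890, 34 and 231 reads, EZ721173.1 had 829, 42 and 257, and Unigene9458 had 492, 12 and 102. Reads covered 99.8% of the bases of Unigene72277 in S1, 60.3% in S2 and 97.9% in S3.

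Protochlorophyllide reductase did not share that return. EZ723035.1 had 1568, 190 and 183 reads and RPKM of 143, 18.0 and 16.1 over the stages. It was 7.97-fold lower in S2 than in S1 (6.85 to 9.31), with an S3 to S2 ratio of 0.899 (0.730 to 1.11). A second row named as a homologue of this enzyme, EZ734950.1, was level at 40, 35 and 39 reads. Reads of the 3 magnesium chelatase rows above were set against protochlorophyllide reductase reads within each library. The ratio was 1.38 for S1 (1.29 to 1.47), 0.391 for S2 (0.302 to 0.503) and 2.66 for S3 (2.27 to 3.12). Further magnesium chelatase rows, spelled differently and described below, are not in it.

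The row named chlorophyll synthase, the enzyme that attaches the phytol tail, followed the 3 magnesium chelatase rows: Unigene6838 had 79, 9 and 49 reads. Its S3 to S2 ratio was 5.08 (2.47 to 11.8). The 2 rows named bacteriochlorophyll synthase went the other way, with 4, 24 and 16 reads in EZ727720.1 and 2, 9 and 6 reads in EZ734829.1, and these were the 2 rows at least 2 times higher in S2 than in S1. For EZ727720.1 the S1 to S2 ratio was 0.161 (0.0406 to 0.468), and for EZ734829.1 it was 0.215 (0.0226 to 1.04). Chlorophyllase, an enzyme of chlorophyll breakdown, had a single read in 2 rows.

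Magnesium chelatase has 3 subunits, H, I and D, and another 11 rows whose descriptions spell the enzyme differently were looked at after the values above were seen. They summed to 87.1, 52.1 and 108 RPM in stage order, only 1.67-fold lower in S2 than in S1 (1.46 to 1.91). These 11 rows are not in the ratio to protochlorophyllide reductase reads given above. In S2 they had 348 reads against 88 in the 3 soybean-matched rows, so the low S2 ratio is that of those 3 rows only. The row for subunit H, the porphyrin-binding subunit (Unigene61563), had 73, 6 and 21 reads, 11.7-fold lower in S2 than in S1 (5.15 to 33.1). Subunit I (EZ740273.1) had 197, 138 and 335 reads, and the 7 rows for subunit D summed to 258, 163 and 295 reads. S3 was above S2 in this set too, by 2.07-fold (1.82 to 2.36). The deep reduction of magnesium chelatase in S2 was thus seen in the 3 soybean-matched rows and in the subunit H row. It was much smaller in the single subunit I row, at 1.38-fold (1.10 to 1.73), and in the 7 subunit D rows, at 1.53-fold (1.25 to 1.87). Rows named as 46 kDa subunit-like had 39, 22 and 59 reads in JK153971.1 and 35, 19 and 62 in GW985842.1. Among the D rows, Unigene66588 with 97, 42 and 97 reads was 2.23-fold lower in S2 than in S1 (1.54 to 3.28), whereas Unigene50540 with 83, 57 and 117 reads was 1.41-fold lower (0.992 to 2.01), and the intervals of the other D rows include 1.

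The partial return in S3 differed between roles. Rows whose S1 RPKM was 10 or more were compared for this, a limit that uses neither buried library, and 30.3% of all 30727 such rows had an S3 to S2 interval above 1, with a median ratio of 1.02. The interval lay above 1 for 7 of 9 antenna rows (median ratio 2.32) and 4 of 5 pigment synthesis rows (median 5.71). It did so for 1 of 11 photosystem I rows (median 1.12), 1 of 3 photosystem II rows, 1 of 3 plastocyanin rows and 0 of 1 Rubisco small subunit row. Levels at least 2 times higher in S3 than in S2 in RPKM + 1 were found for 5 of the 9 antenna and 4 of the 5 pigment synthesis rows, against 13.0% of all rows of the limit. The high ratio of EZ721956.1, 4.67, rests on 1 read in S2. Antenna reads were 2.43-fold higher in S3 than in S2 (2.23 to 2.65), and nuclear reaction centre reads 1.18-fold (1.03 to 1.35). Antenna reads per nuclear reaction centre read numbered 4.46 for S1 (4.32 to 4.61), 1.86 for S2 (1.64 to 2.11) and 3.83 for S3 (3.47 to 4.23).

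Library scaling matters for this step, since the median row of the whole table was 0.18 higher in S3 than in S2 on the log2 scale. Rescaling the libraries by the median of ratios multiplies each S3 to S2 ratio by 0.853. Antenna rows were then 2.07-fold and the 3 soybean-matched magnesium chelatase rows 5.34-fold higher in S3 than in S2. The nuclear reaction centre ratio came to 1.01, and to 0.993 with upper-quartile scaling. The ratios of antenna to reaction centre reads and of these 3 rows to protochlorophyllide reductase reads do not depend on the scaling. The second does depend on which magnesium chelatase rows are counted.

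**Figure D3:**
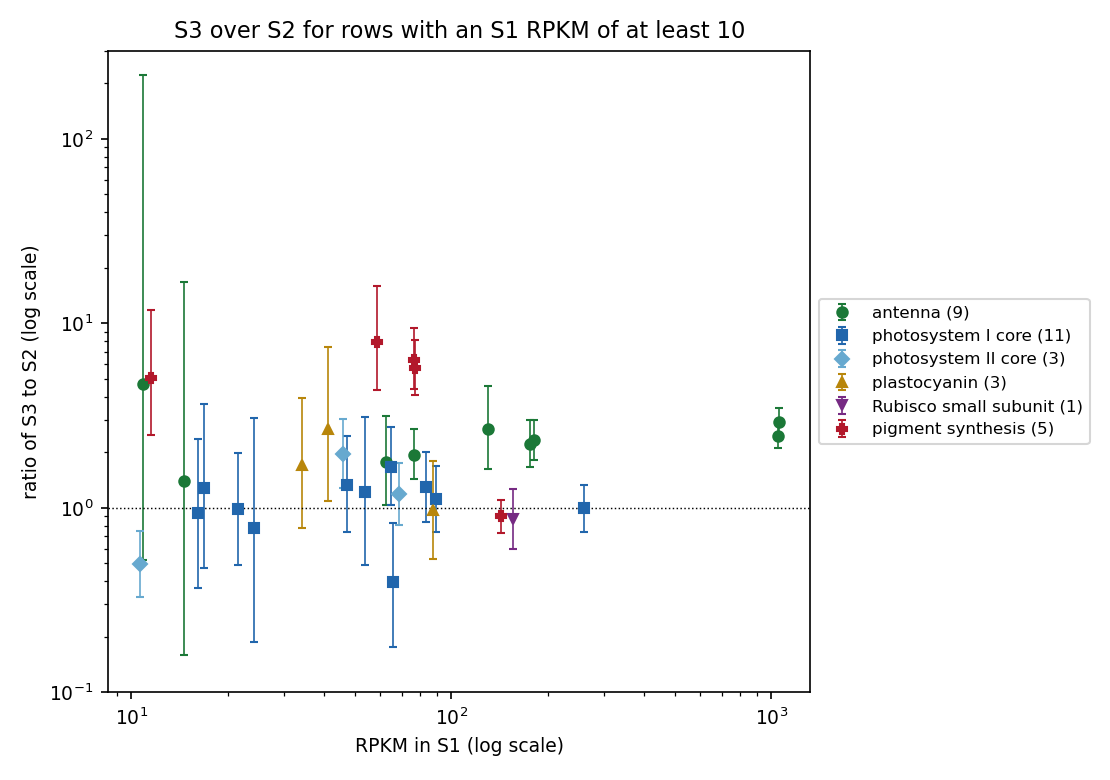
For each of the 32 rows of 6 roles whose S1 RPKM was 10 or more, the RPKM in S1 (x, log axis) and the ratio of S3 to S2 (y, log axis, with exact 95% counting intervals); the dotted line marks equal levels. Magnesium chelatase and chlorophyll synthase points lie between 5.08 and 7.93 on the y axis, antenna points lie between 1.40 and 4.67, and photosystem I points lie on either side of 1.

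Several rows followed other courses. The 7 rows named for the Rubisco large subunit methyltransferase, or for proteins like it, summed to 55.0, 27.7 and 54.8 RPM over the stages. Unigene9512 set that pattern with 155, 49 and 249 reads, and its S3 level was 4.74-fold above S2 (3.48 to 6.58) and 1.55-fold above S1 (1.27 to 1.91). JK179598.1 had 11, 17 and 41 reads and was 3.60-fold higher in S3 than in S1 (1.82 to 7.77). Unigene13041, by contrast, had 166, 66 and 56 reads. Without Unigene9512 the S3 to S2 ratio of the group was 0.982, so its return rests on that row.

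Ribulose-5-phosphate epimerase serves both the Calvin cycle and the pentose phosphate pathway, and its 4 rows summed to 23.9, 17.5 and 15.9 RPM. EZ723103.1 had 77, 31 and 44 reads and EZ727728.1 had 50, 63 and 49. The 2 rows that share only a word encode a methylthioribulose-1-phosphate dehydratase of the methionine salvage cycle. They had 153, 160 and 226 RPM, and with them the whole set of 89 rows stood at 4824, 485 and 807.

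Other genes of photosynthesis, selected by words in their descriptions, were set beside these. Oxygen-evolving enhancer proteins, which shield the manganese cluster of photosystem II, summed to 114, 8.39 and 6.01 RPM over the stages, and 2 of 4 rows with a read were lower in S2 by 2 times or more. That sum is in effect 1 sequence, EZ725242.1 (776, 53 and 41 reads), which held 98.2% of the reads. Ferredoxin, the electron acceptor of photosystem I, summed to 137, 8.69 and 20.3 RPM, with 4 of 5 rows lower in S2 and 2 higher in S3 than in S2. Early light-induced proteins, which bind chlorophyll under light stress, stood at 70.9, 7.04 and 10.4, with both rows lower in S2. Cytochrome b6f rows (18.1, 6.74 and 9.79) and chloroplast ATP synthase rows (100.1, 42.9 and 37.5) were lower in S2 by 2.68-fold (1.89 to 3.86) and 2.34-fold (2.03 to 2.69). Past 2 times were 2 of 12 rows (16.7%) and 2 of 7 rows (28.6%), against 9.19% of all rows with a read. All ATP synthase rows and most cytochrome b6f rows name plastid-encoded subunits, whose levels after oligo(dT) capture are not comparable with nuclear ones. The iron-sulfur subunit (EZ735411.1), encoded in the nucleus, had 84, 18 and 21 reads, 4.51-fold lower in S2 than in S1 (2.69 to 7.97). Subunit IV (Unigene28406) ran the other way, with 5, 8 and 31 reads of the 125, 45 and 70 of the cytochrome b6f list.

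Other lists hold enzymes that also serve tissues without chlorophyll. The 12 rows for Calvin cycle enzymes and triose phosphate translocators were together 2.12-fold lower in S2 than in S1 (2.02 to 2.23). Of these, 2 (16.7%) were lower in S2 by 2 times or more and 1 (8.33%) was higher, against 9.19% and 9.03% of all rows with a read. Glyceraldehyde-3-phosphate dehydrogenase B, specific to chloroplasts, had RPKM of 74.6, 3.39 and 4.83 in EZ736179.1, and the chloroplast triose phosphate translocator had 230.3, 31.5 and 28.2 in EZ721184.1. EZ721184.1 held 37.9% of the reads of the list. Another row of the same name, Unigene12324, had RPKM of 24.7, 21.0 and 9.65, 1.18-fold lower in S2 than in S1 (0.845 to 1.64). The highest RPKM was in S2 for 6 of the 12 rows and in S1 for 5. In S3, 5 of the 12 rows were at least 2 times lower than in S2 (11.4% of all rows with a read). Of 32 tetrapyrrole synthesis rows, 4 of which are also among the 11 chelatase rows above, 12 were lower in S2 by 2 times or more and none was higher by as much, and the list as a whole was 1.66-fold lower (1.58 to 1.74). Porphobilinogen synthase, a shared step of heme and chlorophyll synthesis, had RPKM of 112, 66.9 and 56.6 in EZ735728.1, and the 8 rows for glutamyl-tRNA reductase, the entry step, were 1.56-fold lower in S2 than in S1 (1.43 to 1.71). These 8 rows were not alike: Unigene54205 had 151, 22 and 17 reads, the row with the most reads, Unigene10533, had 545, 470 and 328, and Unigene71738 ran the other way, at 135, 189 and 149. Rows for magnesium protoporphyrin methyltransferase were lower in S2 than in S1 by 4.83-fold in Unigene13657 (2.97 to 8.24) and 5.02-fold in EZ745835.1 (2.52 to 11.1). Glycolate oxidase and phosphoglycolate phosphatase, enzymes of photorespiration, summed to 65.1, 77.0 and 86.3 RPM. Of their 9 rows, 2 (22.2%) were lower and 1 (11.1%) higher in S2 than in S1, against 9.19% and 9.03% of all rows. The higher row, EZ725205.1 (163, 345 and 382 reads), holds 56.3% of the reads. The 2 lower rows, named peroxisomal glycolate oxidase, fell 19.0-fold in EZ755173.1 (6.19 to 94.7) and 10.9-fold in EZ755172.1 (3.96 to 41.6). No row named a Golden2-like factor.

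**Figure D4:**
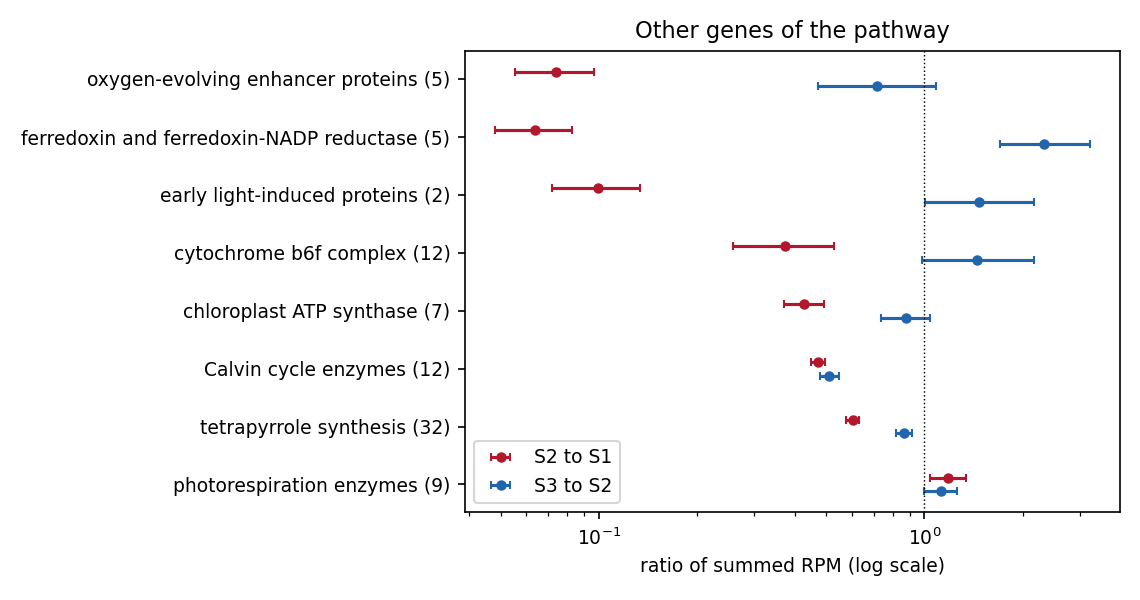
Ratio of summed RPM (log axis) of S2 to S1 and of S3 to S2 for 8 lists of other photosynthesis genes, the number of rows in parentheses; bars are exact 95% counting intervals, and the dotted line marks equal levels. Oxygen-evolving, ferredoxin and early light-induced lists lie farthest left for S2 to S1, and the photorespiration list lies to the right of 1. In the photorespiration list 1 row holds 56.3% of the reads. The ATP synthase rows and most cytochrome b6f rows name plastid-encoded subunits.

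The rest of the libraries gives the scale for these differences. Actin rows summed to 1202, 1308 and 1456 RPM over the stages and ubiquitin rows to 2112, 2793 and 2271, whereas tubulin rows stood at 6364, 5079 and 2950. Elongation factor 1-alpha was matched by only 3 rows with 34, 28 and 72 reads (4.92, 4.20 and 10.1 RPM), and 92.5% of these came from Unigene60208. Glyceraldehyde 3-phosphate dehydrogenase rows not named for the chloroplast stood at 1081, 927 and 410. Their descriptions do not name a cell compartment. All 5 of these dehydrogenase rows were at least 2 times lower in S3 than in S1, against 13.9% of all rows with a read. In S2, 2 of the 5 were (9.19% of all rows), EZ721116.1 by 11.0-fold (7.28 to 17.2) and JF957835.1 by 31.6-fold (12.1 to 118). Seed and embryo protein rows, 35 of 47 with a read, summed to 198, 333 and 189 RPM, and the excess in S2 was that of 1 conglutin row (EZ724139.1) with 406, 1232 and 291 reads. Without it the list stood at 139, 148 and 148 RPM. Their part in the photosynthesis differences was not tested. No row named leghemoglobin, the marker of root nodules.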

How the data were processed

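Total RNA of 3 gynophore stages was enriched for poly(A) RNA and sequenced, 1 library per stage. The authors deposited 1 table with, per reference sequence, its length, the count of uniquely aligned reads, the RPKM and the percent of bases covered. Reads sharing a position with another sequence were dropped, which lowers the count of near-identical gene copies. Which aligner was used, and its version, is not stated: not given in the sources used here. Deposited RPKM could be recomputed from the deposited counts, lengths and library totals to within a relative difference of 8.42e-09.

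Rows were chosen and assigned to roles by words of their descriptions, with earlier results of these data known; word lists were trimmed on descriptions afterwards, and the 11 magnesium chelatase rows of other spelling the gene ontology sets and the S1 limit for S3 to S2 ratios were added after seeing the data. Sums, exact Poisson and Clopper-Pearson 95% intervals, and counts past 2 times in RPKM + 1 were computed in Python 3.11.15 (numpy 2.4.6, pandas 2.3.3, scipy 1.17.1, matplotlib 3.10.9), and the interval code was tested on simulated data. Without replicates no test was run. Named rows were the 3 with the highest mean RPKM of each role, the largest differences among rows with an RPKM of 10 or more, and rows running against their role; further rows named for completeness were picked with values seen. None of the 89 rows matched the RefSeq gene table, so no position is given.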

Additional observations from a re-analysis of the deposited data

How the results depend on the processing

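With 1 library per stage no replicate could be left out. No paired analysis was possible because there was only 1 library at each stage. Counts limit the weak rows, unique alignment limits near-identical copies, and stage, sampling and library cannot be told apart. Of the comparisons not printed below, 74 for the main sums and counts stayed within their limits, as did 63 for the other sums and 185 for single rows; 20 and 11 of these last 2 kinds moved beyond counting error in the same direction.

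Rescaling by the median of ratios gave S3 to S2 ratios of 1.52 for all rows but those sharing only a word, 2.07 for the antenna, 1.01 for the nuclear reaction centre and 1.98 for pigment synthesis, and S3 below S1 by 9.19-, 12.9-, 11.0- and 5.22-fold. The upper quartile gave 1.50, 2.05, 0.993 (turned below 1) and 1.96 for S3 to S2, 9.09-, 12.7-, 10.9- and 5.17-fold for S3 below S1, and 13.7-fold for all rows in S2 below S1.

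Without the row with the most reads, S2 lay below S1 by 11.7-fold for all rows, 22.0-fold for the antenna, 13.7-fold for pigment synthesis and 5.79-fold for the Rubisco small subunit. That small subunit value rests on very few reads, since the row left out held 99.3% of them. S3 then lay below S1 by 6.96-fold for all rows and by 9.73-, 8.76- and 3.45-fold for the antenna, nuclear reaction centre and pigment synthesis. The S3 to S2 ratios were 1.68 for all rows, 3.96 for pigment synthesis, 0 for the Rubisco small subunit, whose remaining rows had no S3 read, and 0.982 for the Rubisco methyltransferase.

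With assembled unigenes only, S2 lay below S1 by 5.84-fold for all rows, 1.45-fold for the antenna, which then is 1 row, 5.31-fold for the nuclear reaction centre and 25.7-fold for pigment synthesis. The S3 to S2 ratios were 2.17, 0.933, 0.467 and 6.48 in that order, and S3 lay below S1 by 2.69-, 1.55-, 11.4- and 3.96-fold. Counts of unigenes past 2 times were 8 lower and 0 higher in S2 than in S1, 0 lower and 4 higher in S3 than in S2, and 6 lower and 0 higher in S3 than in S1. With public sequences only, all rows lay 16.0-fold lower in S2 and 9.37-fold lower in S3 than in S1, pigment synthesis 7.86-fold and 5.04-fold, with an S3 to S2 ratio of 1.56. The methyltransferase then stood at 0.598 for S1 over S2, and 7 rows were higher in S3 than in S2.

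Taking the median row in place of the sum gave S2 below S1 by 2.19-fold for all rows, 2.57-fold for the antenna, 7.11-fold for the nuclear reaction centre, 6.46-fold for pigment synthesis and 1.47-fold for the Rubisco small subunit. S3 lay below S1 by 2.56-, 2.95-, 5.82-, 2.41- and 1.47-fold in that order, and S3 to S2 came to 1.00 for all rows, 1.05 for the antenna and 1.00 for the reaction centre. The methyltransferase medians were 0.972 for S1 over S2 and 0.876 for S3 over S2. A pseudocount of 0.1 gave 5 rows lower in S3 than in S2 and 4 higher in S3 than in S1, and with rows of RPKM of at least 10, 0 rows were higher in S2 and 1 higher in S3 than in S1. The causes of these shifts were not tested beyond the number of rows.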

Other observations

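Many peanut sequences carry no usable name, and gene ontology terms give a second way into the same pathway that does not use the description words. Outside the 89 rows, 25 had the molecular function tetrapyrrole binding, of which 24 had a read and 21 matched proteins called unknown, hypothetical, predicted or unnamed. They were 13.9-fold lower in S2 than in S1 (12.9 to 15.0), and S3 was 2.05-fold above S2 (1.89 to 2.23). Of the 24, 18 were lower in S2 by 2 times or more and 1 was higher, against 9.19% and 9.03% of all rows with a read.

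The largest of them, EZ728810.1, had 2294, 132 and 248 reads in stage order, and EZ751371.1 had 1987, 117 and 457. EZ721133.1 had 978, 28 and 9 reads and was thus lower in S3 than in S2, where most rows of this set were higher. EZ725004.1 and EZ723096.1, both matching unnamed grape proteins, ran against the set, with 15, 45 and 108 reads in the first and 10, 21 and 64 in the second. The cellular component photosystem was carried by a further set of 60 rows that shares rows with this one. Of its 59 rows with a read, 44 were lower in S2 by 2 times or more and 0 were higher, against 9.19% and 9.03% of all rows. Gene ontology terms were themselves assigned from sequence matches, so these rows may include copies of the families described above.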
